A study of Mus musculus with 9 samples.

Results

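The AP-1 factors described here were 9 genes: Jun, Junb and Jund, Fos, Fosb, Fosl1 and Fosl2, and the related Batf and Atf3. Every array probe whose transcript accession belonged to one of these genes was taken, which gave 11 probes (2 each for Junb and Fosl2 and 1 for each other gene) of 41174 distinct probes, and 9 of the 16535 genes that could be named. The rule used gene names and no measured values. All 11 probes were well above background on all 9 arrays, so every member was tested.

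The arrays compared the mouse cell line FDCPmix, a line of multipotent hematopoietic progenitors that depends on IL-3, after knockdown of one of a pair of transcription factors. Cells kept under self-renewal conditions were infected with a Lentilox lentivirus, and viable GFP-positive cells were sorted 5 days later. The 3 groups were empty vector (EV), Gata2 shRNA (here Gata2 KD) and Pu1 shRNA (here Pu.1 KD), with 3 arrays in each, and all 3 groups shared the cell line, the culture, the virus backbone and the sort for GFP. Total RNA (150 ng) was labeled with Cy3 and hybridized to 1-color arrays. The cells were 1 line. Triplicate samples were transduced, but the sources do not say whether they began as separate cultures, so the p-values below measure the spread between these samples only. The question asked of these genes was whether loss of GATA2 or of PU.1 moved the AP-1 factors of the progenitor.

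AP-1 is a dimer of basic leucine zipper (bZIP) proteins. A Jun protein pairs with another Jun or with a Fos protein and binds the palindrome TGANTCA, while Batf and Atf3 pair with Jun proteins and can replace Fos in the dimer. Fos, Fosb, Jun, Junb and Atf3 are immediate early or stress genes, whose RNA is made within minutes of a signal through the MAP kinases and is short-lived, and Jun proteins are known partners of PU.1 in monocytic cells.

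The promoters of the members that passed a test (Fos and Jund) are given to show which letters lie there. Those of Jun and Junb are also given, since they held an exact match to the GATA form AGATAAG or the PU.1 form GGAAGTG. RefSeq promoter windows were found for 8 of the 9 members, all but Fosl1. Each holds the 250 bases before the annotated transcription start and the 50 bases that begin there, in build GRCm38.p6, written 5′ to 3′ along the gene. Capitals mark a match to one of 6 motifs searched on both strands, with positions counted from 0 at the annotated start. The Jund window lies at the start that the table annotates, and whether that is the start used in these cells is not known. The windows are Fos chr12:85473640-85473939 (plus strand), Jund chr8:70697489-70697788 (plus strand), Jun chr4:95052173-95052472 (minus strand) and Junb chr8:84978699-84978998 (minus strand).
Fos: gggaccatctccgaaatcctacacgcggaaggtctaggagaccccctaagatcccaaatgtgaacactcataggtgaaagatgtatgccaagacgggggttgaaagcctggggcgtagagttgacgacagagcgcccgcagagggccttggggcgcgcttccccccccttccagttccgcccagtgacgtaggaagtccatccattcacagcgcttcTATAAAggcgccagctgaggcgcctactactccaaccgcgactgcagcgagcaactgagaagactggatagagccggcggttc
Jund: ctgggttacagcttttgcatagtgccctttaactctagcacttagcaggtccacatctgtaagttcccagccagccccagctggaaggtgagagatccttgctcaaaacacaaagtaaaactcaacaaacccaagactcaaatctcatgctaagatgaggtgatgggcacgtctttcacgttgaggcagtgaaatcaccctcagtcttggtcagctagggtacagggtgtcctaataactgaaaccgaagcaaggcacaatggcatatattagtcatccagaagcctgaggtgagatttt
Jun: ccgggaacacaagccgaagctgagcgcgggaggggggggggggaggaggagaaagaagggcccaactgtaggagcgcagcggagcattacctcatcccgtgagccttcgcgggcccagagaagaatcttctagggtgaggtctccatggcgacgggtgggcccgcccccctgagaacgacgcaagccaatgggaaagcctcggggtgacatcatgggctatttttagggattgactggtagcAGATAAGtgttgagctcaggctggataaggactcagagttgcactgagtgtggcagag
Junb: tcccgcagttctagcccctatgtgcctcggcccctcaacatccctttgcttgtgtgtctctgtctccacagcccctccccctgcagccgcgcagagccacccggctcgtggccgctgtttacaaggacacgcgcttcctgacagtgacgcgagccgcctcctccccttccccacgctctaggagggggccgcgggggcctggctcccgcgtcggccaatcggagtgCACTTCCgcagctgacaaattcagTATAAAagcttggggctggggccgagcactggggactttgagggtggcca

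In the Fos window the capitals are a TATA box (TATAAA) at positions -33 to -28. The Jun window held the GATA motif AGATAAG at positions -8 to -2. The Junb window held the PU.1 motif GGAAGTG on the opposite strand at positions -24 to -18 and TATAAA at positions 0 to 5. Over the 32851 promoters of the table, AGATAAG was found in 3.04%, GGAAGTG in 11% and TATAAA in 13.6%. The AP-1 motif TGANTCA (7.81% of promoters), the CRE TGACGTCA (1.79%) and the CArG box bound by SRF (1.63%) were in none of the 8 member windows. This speaks only of these 300 bases and of the motifs as written. Near forms were not searched or marked, among them TGACGTAG in the Fos window, TGACATCA in the Jun window and TGATAAG in the Atf3 window. The wider GATA consensus used in the paper covers TGATAAG, so which members hold a GATA motif depends on the form searched. No motif search was made outside these windows.

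Levels are given as the log2 of the processed signal relative to the 75th percentile of the array, so that 0 is the signal of a probe at that percentile. They compare arrays within a probe and not one probe with another. The 75th percentile lay between 453 and 599 signal units over the 9 arrays, 80.4 to 89.6% of spots were well above background and 0 spots were saturated. The arrays lay on 3 slides, each with 1 array of each group, so differences could also be read within a slide. The targets were reduced as labeled. Gata2 fell by 1.63 on the log2 scale in Gata2 KD (limma, adjusted p = 0.00398) and Spi1, which encodes PU.1, fell by 1.74 in Pu.1 KD (adjusted p = 0.0018), while in Gata2 KD Spi1 rose by 1.37 (adjusted p = 0.00129). All 9 progenitor markers were above background on all 9 arrays. Against EV, 3 of them rose in Gata2 KD (Cd34 by 2.15, Lmo2 by 0.91 and Kit by 0.73) and Tal1 fell by 0.66, and in Pu.1 KD against EV Kit rose by 1.41 while Cd34 fell by 0.92 and Runx1 by 1.04. The calls of Lmo2, Tal1 and Runx1 each held in 10 of 21 alternative settings. Those of Kit in Gata2 KD and Cd34 in Pu.1 KD each held in 11.

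The groups also differed in markers of mature cells, which stand beside every AP-1 value below. In Gata2 KD against EV, 9 of 9 tested neutrophil markers and 7 of 8 monocyte and macrophage markers rose and 6 of 8 mast cell and basophil markers and 2 of 7 erythroid markers (Klf1 by 1.79 and Epor by 0.67) fell. The Epor call held in 10 of 21 alternative settings. In Pu.1 KD against EV, 8 of 9 neutrophil and 3 of 8 monocyte and macrophage markers fell, 2 of 7 erythroid markers rose, and among the mast cell and basophil markers 2 fell and 1 rose. The summed neutrophil marker signal, in multiples of the 75th percentile, was 114 to 130 in EV, 863 to 997 in Gata2 KD and 19.9 to 26.4 in Pu.1 KD. The monocyte and macrophage sum was 33.7 to 37, 214 to 269 and 14 to 15.5, the mast cell and basophil sum 122 to 140, 23.2 to 25.5 and 87.2 to 95.1, and the erythroid sum 10.5 to 11.1, 8.21 to 11.9 and 16.6 to 18.9 in the same order. The progenitor sum was 63.6 to 79.2, 86.6 to 100 and 60.1 to 65.3. The sums add signal over probes, so the brightest probes weigh most in them. Hba-a1, the brightest erythroid marker, differed by 0.75 in Pu.1 KD against EV and did not pass in limma (adjusted p = 0.169). Of the 9 progenitor markers, 5 were higher and 4 lower in Gata2 KD than in EV, whether or not they passed. No tested marker was at 0. Of the markers on the array only Mrc1 was below background on every EV and Pu.1 KD array, and it was measured on the 3 Gata2 KD arrays. The part of these cell type markers in the AP-1 results was not tested, and in bulk RNA fewer cells of a type and less RNA per cell cannot be told apart.

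Read from the brightest probe of each gene, Fos and Jund were the AP-1 factors that passed a test. With 9 genes, the counts below are not read as a result about the family. Fos was 2.94-fold lower after Pu.1 knockdown, Jund in Gata2 KD was 1.58-fold below its Pu.1 KD level, and Jun, Junb and Batf lay at nearly the same level in all 3 groups. Counted by gene (adjusted p under 0.05 in limma over all probes, each gene read from its brightest probe), 0 of 9 members passed in Gata2 KD against EV, where 7.12% of 15808 genes did. The unadjusted p was under 0.05 for 3 of 9 (Jund, Fos and Atf3), where 18.4% of all genes had such a p, and for 3 and 4 of 9 in the Pu.1 KD against EV and Gata2 KD against Pu.1 KD comparisons, where 14.4% and 22.7% did. In Pu.1 KD against EV 1 of 9 passed, against 3.53% of all genes. In Gata2 KD against Pu.1 KD 1 of 9 passed, a share near the 12.4% of all genes. The moderated F test over the 3 groups called 2 of 9 (Fos and Jund) and 11.8% of all genes. The median difference of the 9 members was -0.12, -0.045 and 0.075 in the 3 comparisons, beside -0.11, -0.047 and -0.052 for all genes tested. The 2 comparisons against EV share the EV arrays.

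**Figure D1:**
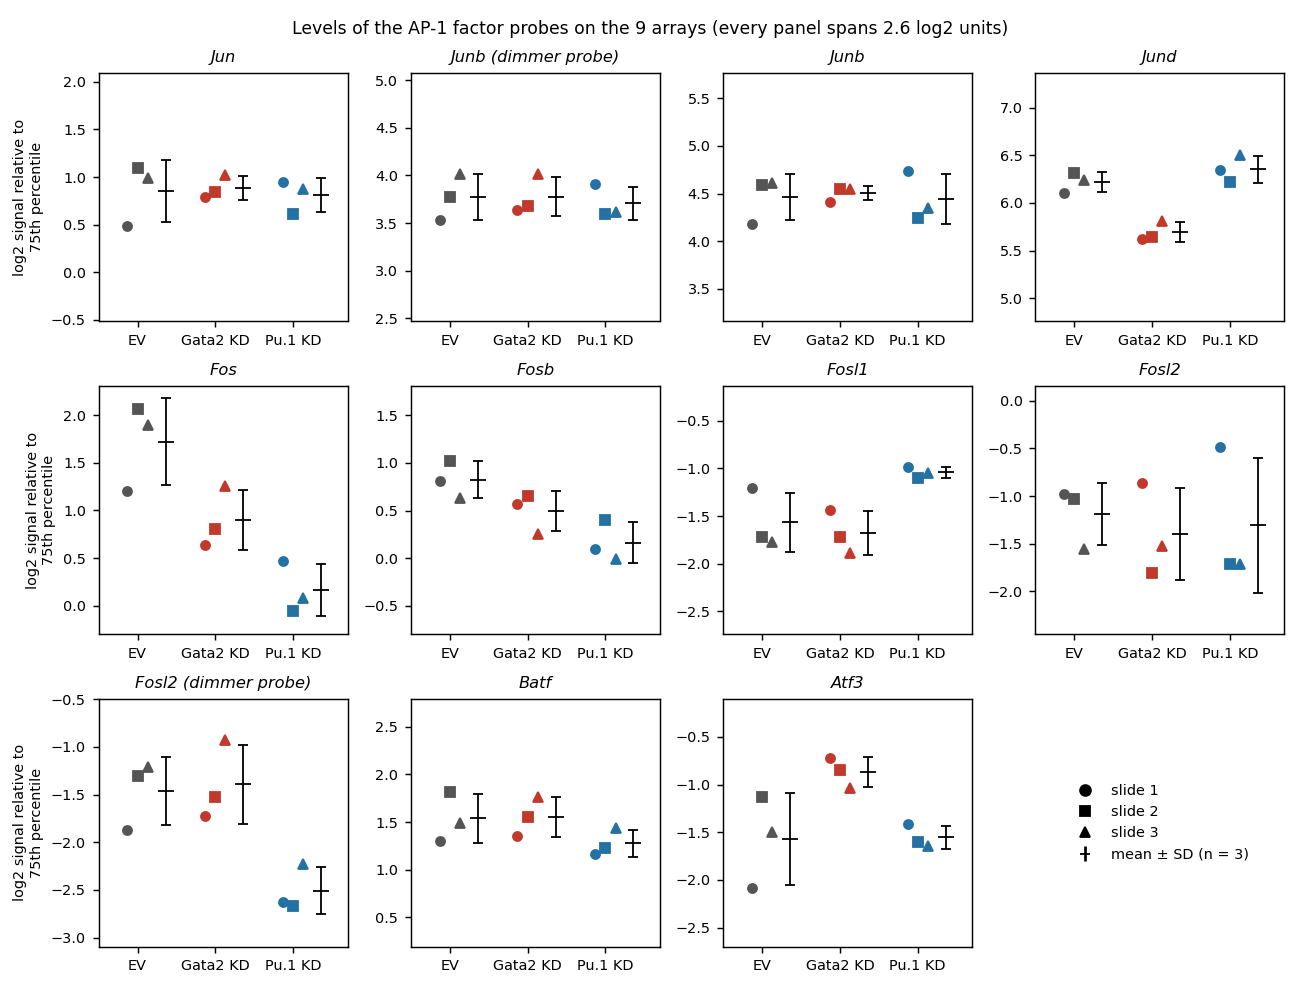
Level of each of the 11 AP-1 probes on the 9 arrays, as log2 signal relative to the 75th percentile of the array, by group; marker shape gives the slide, and the bar is the mean ± SD of 3 arrays. Every panel spans 2.6 log2 units. Jund is low on the 3 Gata2 KD arrays, Fos is highest in EV and lowest in Pu.1 KD, and Jun, Junb and Batf overlap in all 3 groups.

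Among the Jun family, Jun is the founding member and the strongest activator of the family. Its level was 0.49, 0.99 and 1.09 on EV arrays 1 to 3, 1.02, 0.84 and 0.79 on the Gata2 KD arrays, and 0.61, 0.87 and 0.95 on the Pu.1 KD arrays. The 3 groups overlapped, and the lowest and the highest value were both EV arrays. The Gata2 KD minus EV difference was 0.030 (95% interval -0.41 to 0.47) and the Pu.1 KD minus EV difference was -0.045 (-0.48 to 0.39), and both intervals lay within 2-fold of no difference. The Gata2 KD minus Pu.1 KD difference was 0.075 (-0.36 to 0.51).

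Junb, which is known as a weaker activator and as a brake on myeloid proliferation, was read by 2 probes. The brighter one gave 4.18, 4.61 and 4.59 in EV, 4.55, 4.55 and 4.42 in Gata2 KD, and 4.24, 4.35 and 4.74 in Pu.1 KD. Its groups overlapped. The differences were 0.043 (95% interval -0.38 to 0.46) for Gata2 KD and -0.019 (-0.44 to 0.40) for Pu.1 KD against EV, and the dimmer probe gave 0.004 and -0.064. Junb thus did not pass by either probe, and its between-group spread made up 2.24% of its variance over the 9 arrays.

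Jund is the Jun protein that is made steadily in resting cells. Its level was 6.11, 6.25 and 6.32 in EV, 5.82, 5.64 and 5.62 in Gata2 KD, and 6.22, 6.50 and 6.34 in Pu.1 KD. The 3 Gata2 KD arrays lay below the other 6, and EV and Pu.1 KD overlapped. The mean was 5.69 ± 0.11 (SD, n = 3) in Gata2 KD, 6.22 ± 0.11 (n = 3) in EV and 6.35 ± 0.14 (n = 3) in Pu.1 KD.

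The Gata2 KD level of Jund was 1.58-fold below that of Pu.1 KD (log2 difference -0.66, SE 0.14, limma adjusted p = 0.0181), with -0.72, -0.58 and -0.68 within slides 1 to 3. Against EV the Gata2 KD difference was -0.53 (SE 0.14, 95% interval -0.85 to -0.22), which did not pass (adjusted p = 0.0742), although it was negative on all 3 slides (-0.49, -0.68 and -0.43). With the slide as a block it passed, with adjusted p = 0.0346, and it passed in 5 of 21 alternatives in all (adjusted p from 0.00991 to 0.575). Pu.1 KD and EV, neighbors in the order of levels, differed by 0.13 (-0.18 to 0.45, adjusted p = 0.908). The call against Pu.1 KD held in 15 of 21 alternatives and was lost with each array scaled to its median (adjusted p = 0.178), with the replicate number as a block (0.079), and without Gata2 KD array 2 (0.0851), Gata2 KD array 3 (0.0772), Pu.1 KD array 2 (0.0789) or Pu.1 KD array 3 (0.0633).

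**Figure D2:**
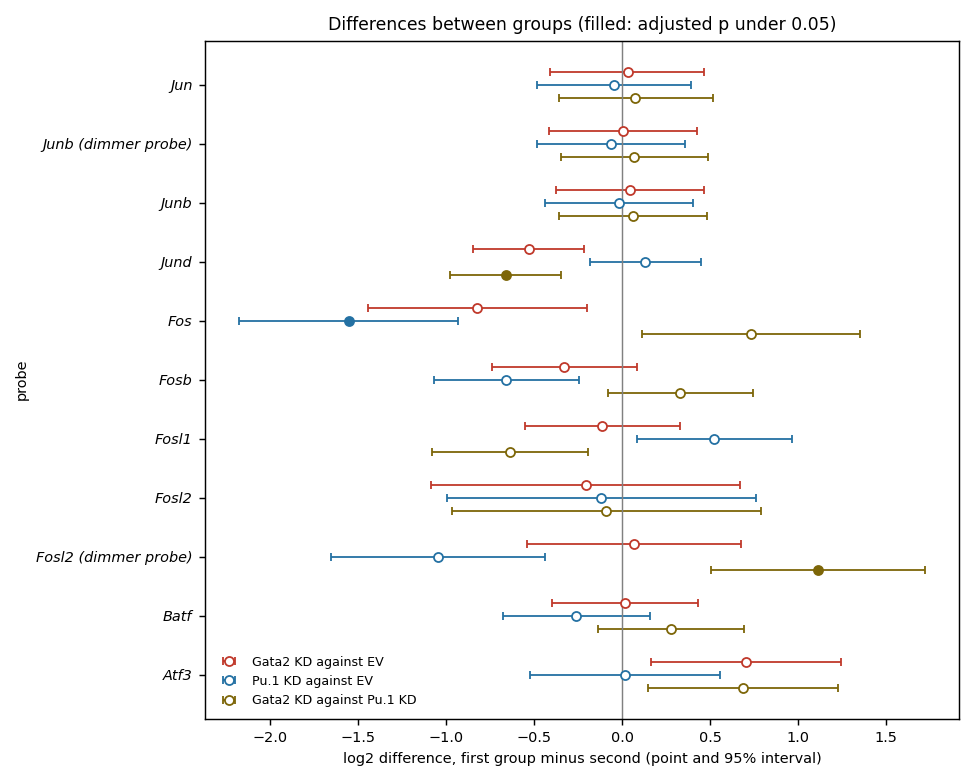
Differences between groups for the 11 AP-1 probes, as log2 points with 95% intervals from limma; filled points have an adjusted p under 0.05. The filled points are Fos at -1.56 in Pu.1 KD against EV, and Jund at -0.66 and the dimmer Fosl2 probe at 1.11 in Gata2 KD against Pu.1 KD.

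In the Fos family, Fos gave the largest difference from EV of the 9 genes. Fos is the classic immediate early partner of Jun. Its level was 1.20, 1.90 and 2.06 in EV, 1.25, 0.80 and 0.64 in Gata2 KD, and -0.051, 0.078 and 0.47 in Pu.1 KD. The Pu.1 KD arrays lay below the other 6, and Gata2 KD overlapped EV through 1 array, Gata2 KD 1, which lay just above EV 1. The array carried the Fos probe in 10 spots, whose SD within an array was 0.051 to 0.13, while the SD between arrays of a group was 0.27 to 0.45.

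Fos was 2.94-fold lower in Pu.1 KD than in EV (log2 difference -1.56, SE 0.27, 95% interval -2.18 to -0.94, limma adjusted p = 0.0233). The difference was -0.74 on slide 1 and -2.11 and -1.82 on slides 2 and 3, where EV array 1, the lowest of its group, was on slide 1. Gata2 KD lay between the other groups. Its difference from EV was -0.82 (-1.44 to -0.20, adjusted p = 0.164) and its difference from Pu.1 KD was 0.73 (0.11 to 1.35, adjusted p = 0.169), so neither neighbor in the order EV, Gata2 KD, Pu.1 KD passed. The sign of the Pu.1 KD difference held in 21 of 21 alternatives (-1.81 to -1.39), and the call in 12. It was lost with arrays scaled to the median (adjusted p = 0.0648), with only the 2 groups in the fit (0.0826), with the replicate number as a block (0.0842), and without EV array 2 (0.0844), EV array 3 (0.0657), Gata2 KD array 2 (0.0541), or Pu.1 KD array 1 (0.113), 2 (0.0983) or 3 (0.0589).

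**Figure D3:**
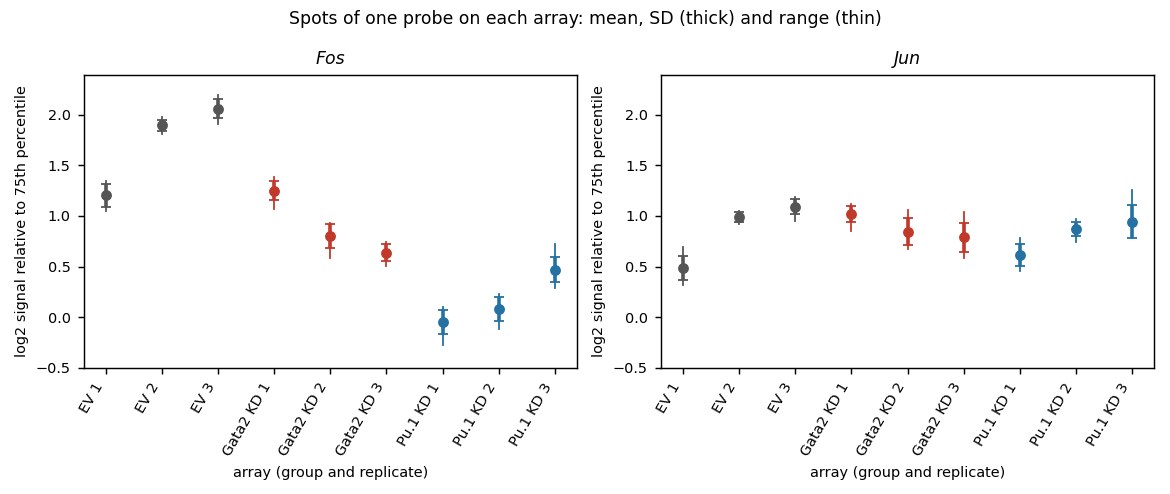
Spots of the Fos and Jun probes on each array, as log2 signal relative to the 75th percentile of the array: the point is the mean of 9 or 10 spots, the thick bar the SD and the thin bar the range. Spots of an array lie close together (SD 0.051 to 0.13 for Fos and 0.051 to 0.17 for Jun), and the Fos arrays of Pu.1 KD lie below all others.

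Fosb, a Fos homolog that is also induced as an immediate early gene, had the levels 0.81, 0.63 and 1.02 in EV, 0.26, 0.65 and 0.57 in Gata2 KD, and 0.40, -0.007 and 0.095 in Pu.1 KD. The Pu.1 KD arrays lay below the EV arrays, and Gata2 KD overlapped both. The Pu.1 KD minus EV difference was -0.66 (SE 0.18, 95% interval -1.07 to -0.25), 1.58-fold, and did not pass (adjusted p = 0.122). The differences within slides were close to each other, at -0.72, -0.62 and -0.64. With the slide as a block the difference passed (adjusted p = 0.0168), as it did with a variance trend and robust settings (0.0493), so its call depended on the model. Gata2 KD differed from EV by -0.33 (-0.74 to 0.082), and the order of means was that of Fos.

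Fosl1 (Fra-1) lacks the activation domain of Fos and is induced late. It was measured at -1.21, -1.77 and -1.72 in EV, -1.89, -1.72 and -1.44 in Gata2 KD, and -1.10, -1.05 and -0.98 in Pu.1 KD. The Pu.1 KD arrays lay above the other 6, the reverse of Fos and Fosb. The difference of Pu.1 KD from EV was 0.52 (0.083 to 0.96, adjusted p = 0.281), and that of Gata2 KD from Pu.1 KD was -0.64 (-1.08 to -0.20, adjusted p = 0.0854). Neither passed, and the second passed with the slide as a block (adjusted p = 0.02) and without EV array 1 (0.0472).

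Fosl2 (Fra-2), the other late Fos-related gene, was read by 2 probes that disagreed. The brighter one, by which the gene was counted, gave -0.98, -1.56 and -1.03 in EV, -1.52, -1.80 and -0.87 in Gata2 KD, and -1.72, -1.72 and -0.49 in Pu.1 KD. Its slide 1 array was the highest of each group, 70.5% of its variance lay between slides, and its differences of -0.21 (-1.09 to 0.67), -0.12 and -0.090 did not pass. The dimmer one gave -1.87, -1.21 and -1.31 in EV, -0.93, -1.53 and -1.73 in Gata2 KD, and -2.67, -2.22 and -2.63 in Pu.1 KD.

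By the dimmer probe the Pu.1 KD arrays lay below the other 6. Gata2 KD exceeded Pu.1 KD by 1.11 on the log2 scale, 2.16-fold (adjusted p = 0.0332, with 0.90, 1.14 and 1.30 within slides), and Pu.1 KD differed from EV by -1.05 (-1.65 to -0.44, adjusted p = 0.0954). That call held in 12 of 20 alternatives and was lost with arrays scaled to the median (adjusted p = 0.112), with quantile normalization (0.0692), with the replicate number as a block (0.0837), and without Gata2 KD array 1 (0.0914), Gata2 KD array 2 (0.0857), or Pu.1 KD array 1 (0.125), 2 (0.0502) or 3 (0.119). Which Fosl2 transcripts each probe reads was not tested, and a Fosl2 difference is therefore given by probe and not by gene.

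**Figure D4:**
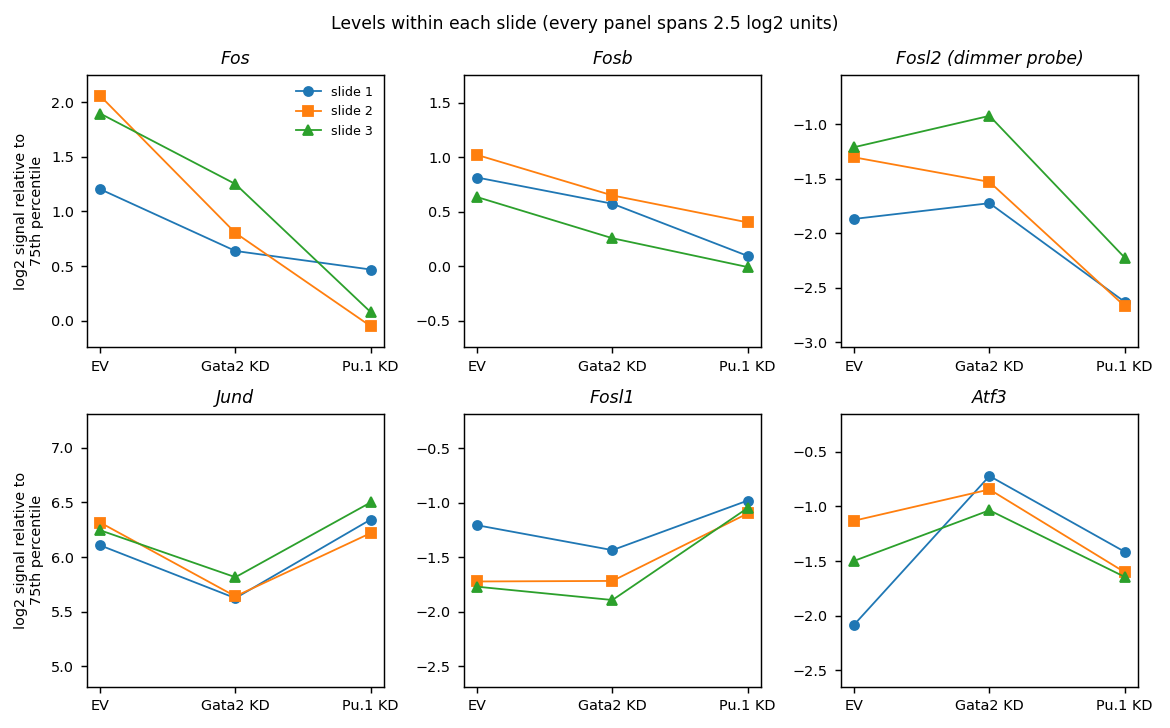
Levels of 6 AP-1 probes within each slide, as log2 signal relative to the 75th percentile of the array; each line joins the 3 arrays of a slide, 1 of each group. Fos and Fosb lie in the order EV, Gata2 KD, Pu.1 KD from high to low on every slide, Jund is lowest and Atf3 highest in Gata2 KD on every slide, and Fosl1 is highest in Pu.1 KD on every slide.

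Batf, a bZIP protein without an activation domain that pairs with Jun in lymphoid and myeloid cells, had the levels 1.31, 1.49 and 1.82 in EV, 1.76, 1.55 and 1.35 in Gata2 KD, and 1.22, 1.44 and 1.17 in Pu.1 KD. All groups overlapped. Its difference from EV was 0.017 (-0.40 to 0.43) in Gata2 KD and -0.26 (-0.68 to 0.16, adjusted p = 0.742) in Pu.1 KD, and Gata2 KD exceeded Pu.1 KD by 0.28 (-0.14 to 0.69).

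Atf3, a stress-induced member of the family that represses many of its targets, gave -2.08, -1.50 and -1.13 in EV, -1.04, -0.84 and -0.72 in Gata2 KD, and -1.60, -1.65 and -1.42 in Pu.1 KD. The Gata2 KD arrays lay above the other 6. The difference from EV was 0.70 (0.16 to 1.24), 1.63-fold, and did not pass (adjusted p = 0.174), and it was 1.36 on slide 1 against 0.29 and 0.46 on slides 2 and 3. The difference from Pu.1 KD was 0.69 (0.15 to 1.23), 1.61-fold, with 0.69, 0.76 and 0.61 within slides, and did not pass (adjusted p = 0.134). It passed in 3 of 21 alternatives: with the deposited values (adjusted p = 0.047), with only the 2 groups in the fit (0.0363) and without EV array 1 (0.045).

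Counted by groups that did not overlap, 2 of 9 members were separate in Gata2 KD against EV (Jund and Atf3, where 23.7% of all genes were), 3 in Pu.1 KD against EV (Fos, Fosb and Fosl1, against 20.6%) and 4 in Gata2 KD against Pu.1 KD (Jund, Fos, Fosl1 and Atf3, against 30.3%). The 95% interval lay wholly within 2-fold of no difference for 6, 7 and 6 of the 9 members in the same order. These are not counts of unchanged members, since the last includes Jund (-0.98 to -0.35), which passed. The share of variance between groups was 89.7% for Jund, 82.7% for Fos, 72.2% for Fosb, 69.3% for Fosl1 and 64.1% for Atf3, and 36% or less for Batf, Fosl2, Jun and Junb. Over the 9 arrays, which share group and slide effects, the genes whose levels were most like those of Jund among 15766 genes were Gmpr (Pearson r = 0.992), Rab37 (0.99) and Ngly1 (0.988). Those most like Fos were Hsp90b1 (0.979), Cops5 (0.977) and Ttc39c (0.973).

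The other genes of the pathway were read from lists. Upstream of AP-1, 2 of 12 MAP kinase genes rose in Gata2 KD against EV. They were Mapk3 (ERK1) by 1.04 on the log2 scale (adjusted p = 0.00196) and Map3k1 by 0.73 (adjusted p = 0.0361, passing in 10 of 21 alternatives). In Pu.1 KD against EV 1 fell, the ERK-activated kinase Rps6ka1, by 0.79 (adjusted p = 0.017, passing in 13 of 21). None of the 6 tested SRF and CREB regulators, some of which drive Fos transcription, passed in limma in any comparison, and their log2 differences ran from -0.26 to 0.53. The unadjusted p was under 0.05 for 0, 0 and 1 of them (Elk3, between the knockdowns). Of 11 tested MAP kinase feedback inhibitors, Dusp2 rose by 0.80 and Dusp4 fell by 1.07 in Gata2 KD against EV, and Dusp1, itself an immediate early gene, fell by 1.16 in Pu.1 KD against EV (adjusted p = 0.0427). Between the knockdowns 5 of the 11 passed (Gata2 KD minus Pu.1 KD): Dusp4 was lower (-1.30, adjusted p = 0.000431), and Dusp1 (0.98, adjusted p = 0.0337), Dusp7 (0.77), Dusp6 (0.74) and Dusp2 (0.72) were higher. The Dusp1 call against EV held in 9 of 21 alternatives (adjusted p from 0.00452 to 0.173).

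The other immediate early genes did not move one way. Of 21, Klf4 fell by 1.32 in Pu.1 KD against EV (adjusted p = 0.0463, passing in 9 of 21 alternatives), while Rhob rose by 0.89 (passing in 7 of 21) and the nuclear receptor gene Nr4a2 fell by 1.25 in Gata2 KD against EV. Egr1, the immediate early zinc finger gene, had a Gata2 KD minus Pu.1 KD difference of -1.58 (adjusted p = 0.00931), where that of Fos was 0.73. In that comparison 4 of 21 were higher, led by the mRNA decay factor Zfp36 (1.61), Klf4 (1.08) and Rhob (1.04), and 5 of 21 were lower, led by Egr1 and Nr4a2 (-1.30). The median over the 21 genes was -0.065, -0.004 and 0.13 in the comparisons of Gata2 KD with EV, of Pu.1 KD with EV and of Gata2 KD with Pu.1 KD.

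Among 12 tested relatives of AP-1 in the bZIP class, 3 rose in Gata2 KD against EV. They were Maf by 4.05 (adjusted p = 9.26e-05, with 2.42 as the mean over its probes and 2.45 with normexp), Batf3 by 1.80 (adjusted p = 0.00083) and Jdp2, a repressor that pairs with Jun, by 1.06 (adjusted p = 0.00573). Jdp2 fell by 1.27 in Pu.1 KD against EV (adjusted p = 0.00637), the 1 relative of 12 that passed. Under the alternatives 0 to 2 relatives were called lower. Gata2 KD against Pu.1 KD had Maf, Jdp2 (2.33) and Batf3 higher and Mafk lower, with a difference of -0.51 (adjusted p = 0.0492, passing in 8 of 21 alternatives).

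Of 15 genes known as AP-1 targets in other cells, 5 rose and 1 fell in Gata2 KD against EV. The chemokine Ccl2 rose by 2.66, the adhesion receptor Cd44 by 1.97 and the urokinase receptor Plaur by 1.21, and Il6 fell by 2.12, while Tnf rose by 1.17 and Ccnd1 by 0.73, the last passing in 7 of 21 alternatives and the other 5 genes in all 21. In Pu.1 KD against EV 0 of 15 rose and 3 fell, Il6 by 1.09, Ccl2 by 1.02 and Plaur by 0.80. These calls held in 11, 12 and 12 of 21 alternatives, in that order. Under the alternatives 0 to 2 genes of the list were called higher and 0 to 4 lower in this comparison. In Gata2 KD against Pu.1 KD 6 were higher, led by Ccl2 (3.68), Mmp9 (2.46) and Plaur (2.01), and Il6 was lower (-1.03). The list's median was 0.73, 0.11 and 0.69. In Pu.1 KD against EV, Cd44 had a difference of 0.57 and Tnf of -0.11, and neither passed in limma (adjusted p = 0.153 and 0.972). The relation of this list to the cell type markers was not tested.

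For the stress pathways that induce Atf3, 0 of 9 integrated stress response genes and 0 of 8 heat shock genes passed in limma in Gata2 KD against EV, while the list medians were -0.24 and -0.14 and the unadjusted p was under 0.05 for 4 and 2 genes. In Pu.1 KD against EV Nupr1 fell by 0.96 and Chac1 by 0.78, and the heat shock gene Hspa1a rose by 1.15 (adjusted p = 0.0358, passing in 9 of 21 alternatives). Between the knockdowns, Phgdh in Gata2 KD was higher by 0.88 and Ddit3, which encodes the bZIP factor CHOP, had a difference of -0.91 (adjusted p = 0.00355).

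**Figure D5:**
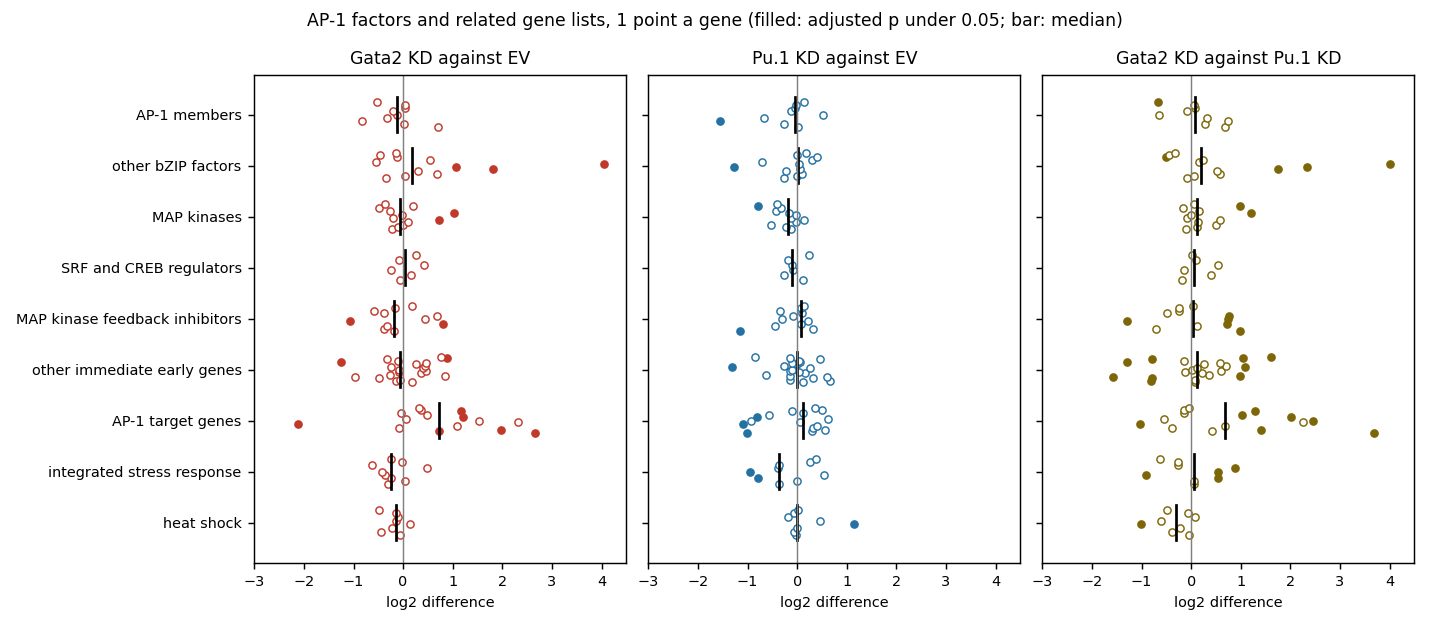
Log2 differences of the 9 AP-1 members and of 8 related gene lists in the 3 comparisons, 1 point a gene, with a bar at the median; filled points have an adjusted p under 0.05. The AP-1 members center near 0 in every comparison, with 1 filled point in each of the comparisons that involve Pu.1 KD. In Gata2 KD against EV the filled points of the other lists reach 4.05 (Maf) and -2.12 (Il6).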

How the data were processed

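Total RNA from 9 samples was hybridized to Agilent whole mouse genome arrays designed on build mm8. For each array the authors deposited the output of Agilent Feature Extraction 10.1.1.1, in which intensity is given per spot as the processed signal (background-subtracted and detrended), the median signal and the local background, with no normalization between arrays. A table of log2 values from the authors, whose processing is not stated in detail, followed the log2 of each array's median signal (r of 0.997 or more), so it appears to lack background subtraction and served as an alternative.

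Processed signals were log2 transformed and each array was centered on its 75th percentile. Control spots were left out, 47 to 96 outlier spots per array were set to missing, and spots of a probe were averaged. A probe was tested when well above background on at least 3 of 9 arrays with at least 2 values in every group (36585 of 41174 probes). Accessions were looked up in a RefSeq gene table of assembly GRCm38.p6, which named 23374 probes. Since that is not the build of the design, no gene coordinates are given, and the promoter windows carry their own build. A gene was read from its brightest tested probe (15808 genes). No deposited sample column was left unused.

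Groups and replicate numbers came from the sample titles. All 9 arrays were fitted together with limma 3.58.1 in R 4.3.3 (lmFit, contrasts.fit, eBayes, two-sided, Benjamini-Hochberg over all tested probes, threshold 0.05), and the script was tested on simulated data. Intervals are 95% and unadjusted. The precision is limited by the 3 arrays in each group. The alternatives were the replicate number or the slide as a block, normexp (offset 50, on the median signal, since the mean signal was not among the columns), quantile or median scaling, other probe filters, outlier spots kept, a variance trend with robust settings, the deposited table, only the 2 groups in the fit, the mean over probes of a gene, and each array left out. Named genes were the 9 members, the targets Gata2 and Spi1, up to 4 called genes for each list and comparison with the largest change, and the 3 genes most like each called member. Ccnd1, Dusp2 between the knockdowns, Elk3, and Cd44 and Tnf in Pu.1 KD against EV were named after their values were seen. Tnf in Gata2 KD against EV, and Rhob and Il6 between the knockdowns, were also named outside this rule. The members and lists were chosen with earlier results of these data known.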

Additional observations from a re-analysis of the deposited data

How the results depend on the processing

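The number of AP-1 members that passed in Gata2 KD against EV was 0 and became 1, Jund each time, with the slide as a block, normexp, quantile normalization, the variance trend with robust settings or the deposited values. In Pu.1 KD against EV it was 1 and became 0 with median scaling or only the 2 groups in the fit, and 2 (Fos and Fosb) with the slide block or the variance trend. In Gata2 KD against Pu.1 KD it was 1 and became 0 with median scaling and 2 with the slide block (Jund and Fosl1), the deposited values or only the 2 groups (Jund and Atf3). The F test went from 2 to 0 with median scaling and 4 with the slide block. The counts over all genes also moved with the setting, over the ranges given below, so a changed count of members is not read as a result about them. The replicate block gave 0 in all 4 tests. Same-numbered arrays correlated between -0.552 and 0.652 in their deviations, and arrays of a slide between -0.041 and 0.719. Some same-numbered arrays also shared a slide, such as EV 2 and Pu.1 KD 2 (r = 0.652). Same-numbered arrays on different slides ran from -0.552 (Gata2 KD 1 and Pu.1 KD 1) to 0.351 (EV 3 and Gata2 KD 3). Whether the numbers pair the samples was not tested apart from the slide. With each array left out in turn the 4 counts ran from 0 to 0, 0 to 1, 0 to 3 and 0 to 2. Of 687 values of member probes under the alternatives, 612 kept their sign and side of the threshold, 38 changed side with the same sign, 37 changed sign without a call in either setting (Fosl2 in Gata2 KD against Pu.1 KD reached 0.512 from -0.09) and 0 reversed. The 131 calls of the listed pathway and marker genes all kept their sign, and 80 were kept in every alternative. Genes called over all ranged from 688 to 1637 (reported 1126), 132 to 1099 (558) and 1290 to 2776 (1955) in the 3 comparisons and 1182 to 2707 (1864) in the F test without leaving out arrays, and from 650 to 992, 164 to 479, 1281 to 2116 and 1164 to 1835 with 1 array left out. The cause of these changes was not tested. The median of all probes in Gata2 KD against EV was -0.114, and -0.056 with median scaling and -0.015 with quantile normalization, so differences of that size are within the choice of scaling.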
